A study of Arabidopsis thaliana with 21 samples.

Results

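The transcripts described here were lower in intact wild-type hypocotyls than after removal of the shoot tip or with NPA, treatments meant to cut the supply of shoot auxin. Auxin itself was not measured on these arrays. Where the cut stem received auxin, the level of these transcripts was near that of intact plants again. They were chosen from group means of log2 values, control probe sets left out, as the probe sets at least 3 above intact after decapitation, at least 3 above intact with NPA, and within 1 of intact after decapitation with IAA. A difference of 3 on the log2 scale is 8-fold and a difference of 1 is 2-fold. Of 22746 probe sets 111 met both rises, and 54 of these met the third condition. RR16, M17 and SBT4.12 were then left out by name, which left 51 members. The probe annotation named 1 gene for 26 members (4 with a gene symbol and 22 with a locus code), several genes for 1 and no gene for 24, so 25 members are given here by probe set. The rises and the return chose the members, and their values below are a description without a test.

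The plants were 2-week-old Arabidopsis thaliana, and each of the 21 ATH1 arrays held RNA from the pooled hypocotyls of 120 to 150 plants, taken 24 h after treatment. Wild-type Col-0 plants were decapitated and given lanolin, kept the shoot tip and given NPA at 3 mg per mL in lanolin, or were decapitated and given IAA at 3 mg per mL in lanolin. The max1, max2 and max3 mutants, whose alleles the labels do not name, and intact Col-0 plants received lanolin without NPA or IAA, so lanolin with ethanol was common to all 7 groups. Each group had 3 biological replicates, and treatments of 1 replicate number were done at the same time.

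Auxin made in young shoot tissue moves down the stem from cell to cell through efflux carriers, and NPA blocks this polar transport. Indole-3-acetic acid (IAA) is the main natural auxin. In the cell auxin acts by having Aux/IAA repressor proteins degraded, which frees auxin response factors, and it is known for holding back side shoots and for sustaining cambium and xylem formation in stems. Strigolactones are hormones that also hold back side shoots. MAX1 and MAX3 act in their synthesis and MAX2 in their perception.

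The median of an array was 6.12 to 6.36 (log2), and values below 3.5, which pile up near background, made up 35.7% to 36.4% of each array. Few marker genes had a probe set of their own in the probe annotation used here. It lists no gene for 8730 probe sets, so markers without an assigned probe set may still be on the array. The leaf markers RCA and LHCB4.2 (2 of 5 listed) averaged 13.34 and 12.18 in decapitated, 12.96 and 12.27 in NPA-treated, 12.46 and 11.97 in IAA-treated and 12.39 and 12.31 in intact hypocotyls, and neither passed the test in any treatment. With the replicate block RCA was called higher after decapitation (0.94, limma adjusted p 0.0161, in place of 0.122). It was also called lower with IAA against decapitated (-0.88, 0.0267 in place of 0.134). In that setting 3538 of all 22746 probe sets were called higher after decapitation and 3402 lower with IAA against decapitated, so such calls are not particular to RCA. Without the block RCA stood at 0.57 with NPA (limma adjusted p 0.318). LHCB4.2 stood at -0.12 after decapitation, -0.04 with NPA and -0.21 with IAA against decapitated. The part of RCA-expressing tissue in the members' values was not tested. The shoot apex markers CLV3 and UFO (2 of 4) and the root marker EXPA7 (1 of 4) stayed between 1.82 and 2.04 in these 4 groups. The cambium marker MOL1 (1 of 3) was lower by -1.14 ± 0.19 (SE) after decapitation and -1.41 ± 0.19 with NPA. None of the xylem and phloem markers had an assigned probe set, so they were not read here. These are whole hypocotyls, in which fewer cells of a type and less RNA per cell cannot be told apart, and the part of MOL1-expressing cells in the values below was not tested.

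Median levels over the 51 members were 8.38 after decapitation, 8.12 with NPA and 3.57 with IAA on the stump, against 3.17 in intact plants. The differences from intact ran from 3.01 to 9.54 after decapitation (median 4.13), from 3.02 to 9.44 with NPA (median 3.80) and from -0.78 to 0.98 with IAA (median 0.14). In all 51 members the 6 decapitated and NPA arrays lay above the 6 IAA and intact arrays, a pattern of arrays the rule itself used, which 7.84% of all probe sets show. The spread between replicates was small beside these differences, with median SDs of 0.29, 0.40 and 0.20 in the decapitated, NPA and IAA groups and 0.25 in the intact group (n = 3 each). Within replicate numbers the smallest rise of any member was 2.24 after decapitation and 2.21 with NPA.

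**Figure D1:**
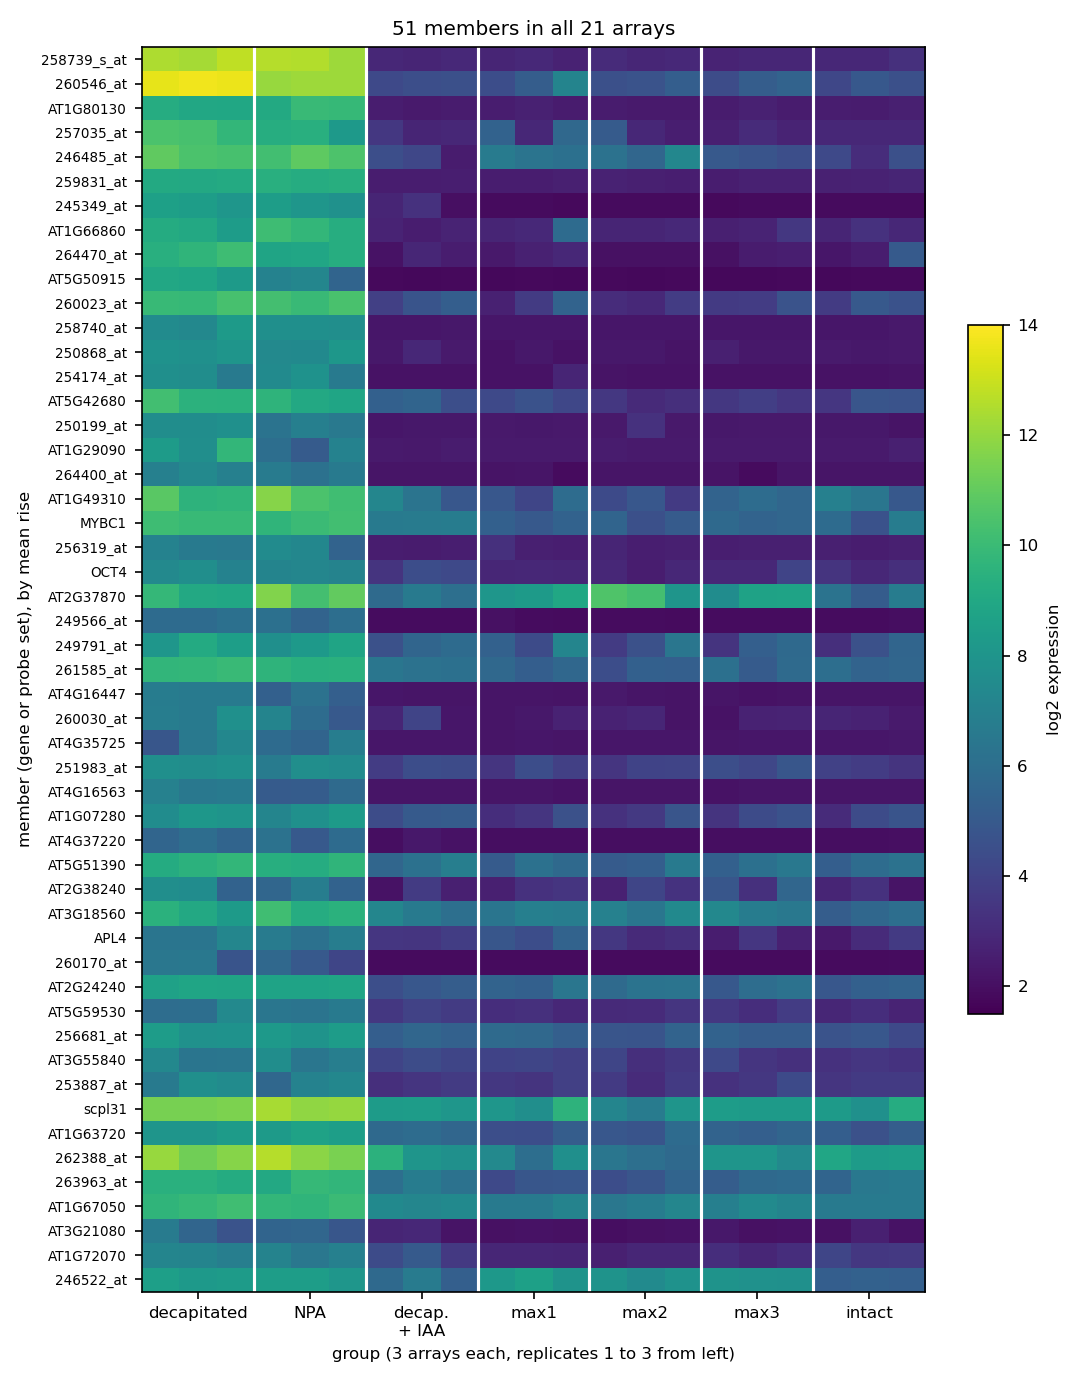
Log2 expression (colour) of the 51 members (down, by the mean of their rises after decapitation and NPA) in the 21 arrays (across, 3 replicates per group). In every line the decapitated and NPA arrays are brighter than the IAA and intact arrays, while 246522_at and AT2G37870 are also bright in the max mutants.

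The member with the largest rises, 258739_s_at, belongs to a probe set that matches several genes and so cannot be assigned to 1 of them. It read 12.49, 12.33 and 12.82 in decapitated, 12.61, 12.55 and 12.19 in NPA-treated and 2.91, 2.77 and 2.94 in IAA-treated hypocotyls, against 2.90, 2.90 and 3.23 in intact ones. The 6 decapitated and NPA arrays stood more than 8 above the IAA and intact arrays, with differences of means of 9.54 and 9.44. The unnamed 260546_at read 13.53, 13.73 and 13.64 after decapitation, 12.09, 12.17 and 12.19 with NPA and 4.24, 4.52 and 4.53 with IAA, against 4.14, 4.94 and 4.53 in intact plants. Here the groups were also ordered among themselves, since every decapitated array lay above every NPA array.

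AT1G80130, which encodes a protein with tetratricopeptide repeats, read 9.24, 8.99 and 8.95 after decapitation, 9.09, 9.96 and 9.86 with NPA and 2.52, 2.41 and 2.46 with IAA, against 2.52, 2.45 and 2.58 in intact plants. Its intact and IAA arrays were near background without exception. AT1G66860, of the class I glutamine amidotransferase-like family, read 9.21, 9.02 and 8.41 after decapitation, 10.10, 9.78 and 9.27 with NPA and 2.74, 2.51 and 2.75 with IAA, against 2.79, 3.29 and 2.90 in intact plants. AT5G50915, which encodes a basic helix-loop-helix transcription factor, read 9.004, 8.86 and 8.30 after decapitation and 7.05, 7.22 and 5.54 with NPA, and 1.80, 1.78 and 1.82 with IAA, against 1.79, 1.80 and 1.82 in intact plants. The IAA and intact arrays of AT5G50915 differed by at most a few hundredths, at the low end of the scale. Among the 12 members with the highest mean rise, 8 had no named gene besides 258739_s_at. Of these, 257035_at averaged 10.20 ± 0.37 after decapitation, 8.95 ± 0.66 with NPA and 3.07 ± 0.38 with IAA, against 2.89 ± 0.01 in intact plants (SD, n = 3 each). 246485_at averaged 10.58 ± 0.30, 10.55 ± 0.35 and 3.72 ± 1.09 in the decapitated, NPA and IAA groups, against 3.95 ± 0.78 in intact plants. 259831_at averaged 9.09 ± 0.07, 9.32 ± 0.08 and 2.52 ± 0.01 in these groups, against 2.70 ± 0.09 in intact plants. These 3 probe sets had no overlap between the raised and the other arrays either. The other 5 (245349_at, 264470_at, 260023_at, 258740_at and 260546_at, given above) stood between 5.41 and 9.10 above intact in both treatments, and 264470_at stood out for 1 high intact array, with 2.25, 2.52 and 5.05 in the 3 intact replicates.

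4 members had a gene symbol. MYBC1 (AT2G40970), a MYB-type transcription factor gene, read 10.12, 9.94 and 9.92 after decapitation, 9.65, 10.03 and 10.21 with NPA and 6.66, 6.69 and 6.74 with IAA, against 5.89, 4.67 and 6.76 in intact plants. Its 3 IAA arrays agreed within 0.1 while the intact arrays spread over more than 2, and the mean with IAA remained 0.92 above intact. OCT4 (AT3G20660), a gene of the organic cation and carnitine transporter family, read 7.37, 7.69 and 7.05 after decapitation, 7.15, 7.25 and 7.11 with NPA and 3.36, 4.47 and 4.25 with IAA, against 3.40, 2.90 and 3.197 in intact plants. 2 of its IAA arrays lay above all intact arrays, so the return was close but not complete in the means (0.86 above intact). APL4 (AT2G21590), a large subunit of ADP-glucose pyrophosphorylase, the enzyme that makes the sugar donor for starch synthesis, read 6.36, 6.34 and 7.25 after decapitation, 6.69, 6.19 and 6.80 with NPA and 3.49, 3.44 and 3.77 with IAA, against 2.37, 3.01 and 3.604 in intact plants. scpl31 (AT1G11080), a serine carboxypeptidase-like gene, read 11.44, 11.42 and 11.52 after decapitation, 12.37, 11.94 and 12.03 with NPA and 8.36, 8.40 and 8.05 with IAA, against 8.31, 7.80 and 9.26 in intact plants. scpl31 was among the members already well expressed in intact plants, and its rise after decapitation, 3.01, was the smallest of all.

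Relatives of these 4 genes that share their symbol were read beside them, a list drawn up after the values had been seen and therefore not tested. Of 28 other serine carboxypeptidase-like genes, 13 averaged below 3.5 in every group, and the other 15 differed from intact by -1.69 to 0.79 after decapitation and by -1.87 to 0.34 with NPA. OCT5 averaged 7.35 after decapitation, 7.42 with NPA and 6.58 with IAA, against 6.26 in intact plants, while OCT1 stayed below 2 in these groups. APL3, another large subunit gene, averaged 8.58 after decapitation, 7.34 with NPA and 7.58 with IAA, against 7.73 in intact plants. Differences of 3 or more in both treatments were thus seen for 1 gene with an assigned probe set in each of these 3 groups of names.

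**Figure D2:**
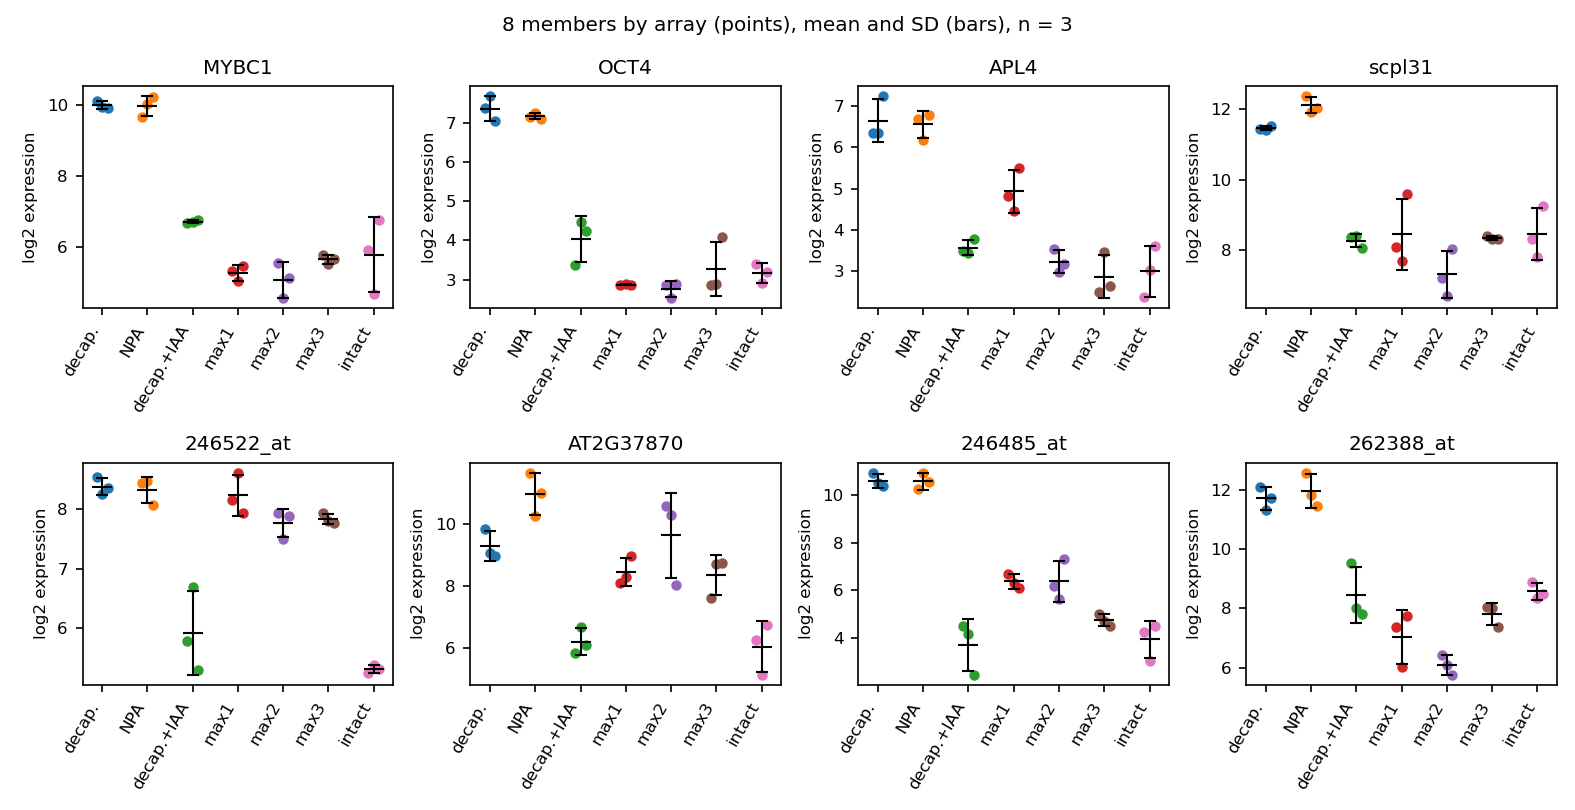
Log2 expression of 8 members in each array (points) with group mean and SD (black bars, n = 3), for the 4 members with a gene symbol and for 4 of the members that differed in a max mutant. The decapitated and NPA points lie above the IAA and intact points in all 8 panels, and in 246522_at the mutant points lie near the decapitated ones.

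By their level in the other groups the members fell into 3 classes. In 19 members all 15 arrays outside the decapitated and NPA groups lay below 3.5, which puts them near background there. They were 258739_s_at, AT1G80130, AT5G50915, AT1G29090, AT4G16447, AT4G35725, AT4G16563, AT4G37220, AT3G21080, 259831_at, 245349_at, 258740_at, 250868_at, 254174_at, 250199_at, 264400_at, 256319_at, 249566_at and 260170_at. Their group means ran from 5.66 to 12.55 after decapitation, from 4.94 to 12.45 with NPA and from 1.80 to 2.88 with IAA, against 1.80 to 3.01 in intact plants. For these the difference from intact depends on where background lies and does not give the size of the change in RNA. Encoded here are a cysteine protease of the papain type (AT1G29090), an aspartyl protease family protein (AT4G16563) and a member of a cold acclimation protein family (AT4G37220). AT1G29090 read 8.38, 7.68 and 9.79 after decapitation, 6.02, 5.09 and 7.06 with NPA and 2.42, 2.37 and 2.43 with IAA, against 2.42, 2.43 and 2.61 in intact plants. AT4G35725 had a wide spread among decapitated arrays, with 4.85, 6.54 and 7.26, against 2.24, 2.25 and 2.29 in intact plants. AT4G37220 read 5.60, 5.94 and 5.53 after decapitation and 6.20, 4.98 and 5.86 with NPA, against 1.97, 1.98 and 2.00 in intact plants, among the lowest raised levels of the class. AT4G16563 read 7.02, 6.52 and 6.66 after decapitation and 5.10, 5.14 and 5.80 with NPA, against 2.20, 2.21 and 2.23 in intact plants, so that the NPA arrays lay between the other groups.

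A further 9 members averaged below 3.5 in intact plants but exceeded it in at least 1 array of the IAA, mutant or intact groups. These were OCT4, APL4, AT1G66860, AT2G38240, AT5G59530, AT3G55840, 257035_at, 260030_at and 264470_at. AT2G38240, an oxygenase gene whose product inactivates jasmonic acid by hydroxylation, read 7.67, 7.56 and 5.41 after decapitation, 5.61, 6.79 and 5.42 with NPA and 2.13, 3.70 and 2.59 with IAA, against 2.81, 3.28 and 2.18 in intact plants. It had the largest SD of all members in the decapitated group, 1.27, because the third replicate stood about 2 below the others. AT5G59530, of the same superfamily of 2-oxoglutarate-dependent oxygenases, read 5.96, 6.02 and 7.36 after decapitation and 6.42, 6.30 and 6.64 with NPA, against 2.86, 3.15 and 2.75 in intact plants. Its 3 IAA arrays, 3.52, 3.95 and 3.65, all lay above the 3 intact ones. AT3G55840, which encodes a protein resembling a nematode resistance protein of sugar beet, read 7.36, 6.36 and 6.41 after decapitation, 7.64, 6.39 and 6.84 with NPA and 4.09, 4.42 and 4.11 with IAA, against 3.302, 3.502 and 3.33 in intact plants.

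The other 23 members averaged 3.55 to 8.57 in intact plants. Their means ran from 7.06 to 13.63 after decapitation, from 6.66 to 12.15 with NPA and from 3.43 to 8.45 with IAA. The lowest intact array of the class read 3.04 and the lowest IAA array 2.47, both below 3.5. For members with such arrays the differences from intact have no exact size, while for the others rise and return can be measured on either side. AT2G37870, of the lipid transfer protein and albumin superfamily, read 9.84, 9.05 and 8.97 after decapitation, 11.63, 10.26 and 11.01 with NPA and 5.85, 6.67 and 6.09 with IAA, against 6.25, 5.13 and 6.73 in intact plants. AT2G24240, which encodes a protein with a BTB/POZ domain, read 8.64, 8.86 and 8.80 after decapitation, 8.73, 8.77 and 8.83 with NPA and 4.51, 4.92 and 5.21 with IAA, against 4.88, 5.34 and 5.49 in intact plants. AT2G24240 was one of the most even members, with SDs of 0.11 and 0.05 in the decapitated and NPA groups. AT1G49310 was one of the least even, reading 10.78, 9.60 and 9.69 after decapitation, 11.74, 10.46 and 10.15 with NPA and 7.24, 6.31 and 4.91 with IAA, against 6.94, 6.40 and 4.92 in intact plants. In each of these 4 groups the first replicate of AT1G49310 was the highest, and no raised array came down to the highest IAA or intact array. The remaining members of the class were AT5G42680, AT1G07280, AT5G51390, AT3G18560, AT1G63720, AT1G67050, AT1G72070, MYBC1, scpl31, 246485_at, 246522_at, 249791_at, 251983_at, 253887_at, 256681_at, 260023_at, 260546_at, 261585_at, 262388_at and 263963_at. Among them AT1G72070, a gene for a DnaJ-type chaperone, read 7.21, 7.14 and 6.84 after decapitation, 7.08, 6.45 and 6.94 with NPA and 4.38, 5.05 and 3.56 with IAA, against 4.11, 3.51 and 3.57 in intact plants. AT1G07280, another gene for a protein with tetratricopeptide repeats, read 7.59, 8.12 and 7.99 after decapitation, 7.19, 7.78 and 8.29 with NPA and 4.40, 5.06 and 5.15 with IAA, against 3.04, 4.37 and 4.77 in intact plants. The raised arrays of both genes lay clear of the IAA and intact arrays.

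NPA and decapitation differ as treatments, since NPA leaves the shoot tip in place, and their levels were set side by side. The rule bounded both rises from below, so this is a description. The median of NPA minus decapitated over the members was -0.09, with 31 of 51 within 0.5 of 0. NPA gave the lower mean in 35 members and the higher in 16. The 3 NPA arrays lay above the 3 decapitated arrays in 4 members (7.74% of all probe sets) and below them in 10 (7.08% of all probe sets), and the groups overlapped in 37. NPA stood furthest below decapitation in AT1G29090 (-2.56), AT5G50915 (-2.12) and 260546_at (-1.48). It stood furthest above in AT2G37870 (1.68), AT1G66860 (0.84) and AT1G49310 (0.76). Of the 19 members near background elsewhere 16 were lower with NPA, with a median difference of -0.25, while the 23 members expressed in intact plants divided into 13 lower and 10 higher, with a median of -0.03. scpl31 was another of the 4 members with every NPA array above the decapitated ones, with 12.37, 11.94 and 12.03 with NPA, against 11.44, 11.42 and 11.52 after decapitation.

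**Figure D3:**
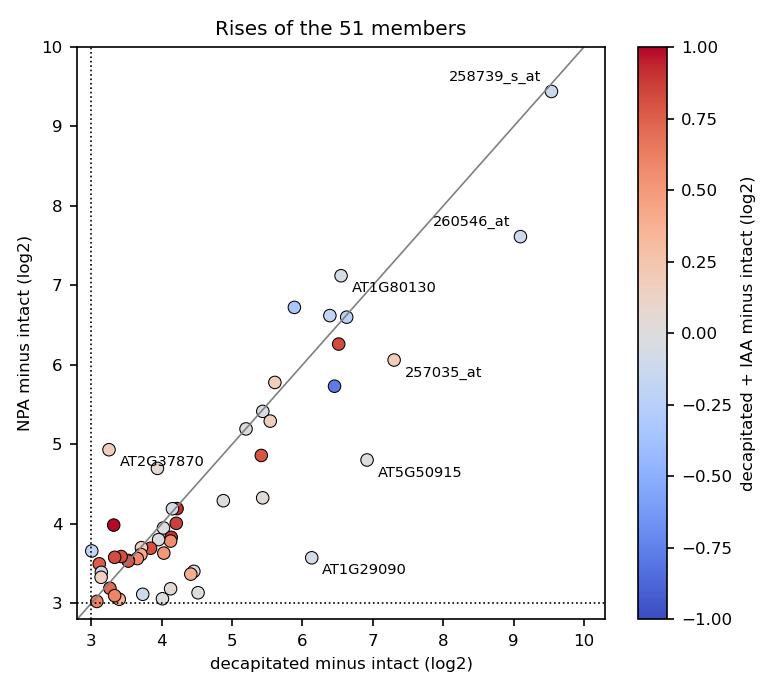
Decapitated minus intact (across) and NPA minus intact (down to up) for the 51 members, each a point of group means on the log2 scale, coloured by decapitated + IAA minus intact. The grey line marks equal rises and the dotted lines the threshold of 3, and AT1G29090 and AT5G50915 lie furthest below the line and AT2G37870 furthest above it.

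With IAA 31 members stood above the intact mean and 20 below it, and 28 lay within 0.25 of it. For the 19 members near background the offset is held near 0 by how the class was drawn. The 23 members expressed in intact plants had a median offset of 0.52, with 17 above and 6 below. Choosing members with low intact values favours positive offsets here. The members nearest to the limit of 1 were AT3G18560 (0.98), MYBC1 (0.92) and 249791_at (0.90). Just outside it were AT4G28290 (1.08), AT1G09460 (1.15) and 251154_at (-1.26). AT4G28290, the closest, averaged 10.87 after decapitation, 10.63 with NPA and 8.30 with IAA, against 7.22 in intact plants. At the other threshold the smaller rise was 3.01 in scpl31, 3.02 in 246522_at and 3.05 in AT3G21080, and just under it 2.999 in 257592_at, 2.96 in 247288_at and 2.95 in 264901_at. No gap in the values separates members from the probe sets around them. A further 54 probe sets met both rises and stayed more than 1 above intact with IAA, and 3 stood more than 1 below.

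Members were also chosen again by the same rule from 2 replicate numbers and read in the number left out. The rule was set with earlier results of these data known, so the counts are a description and not an independent test. Without number 1 the rule gave 46 probe sets, of which 42 stood at least 3 above intact after decapitation in that replicate, 37 at least 3 above with NPA, 41 lay within 1 of intact with IAA and 30 did all of these. Without number 2 it gave 47, of which 29 did all of these, and without number 3 again 47, of which 27 did. Among all probe sets 0.255%, 0.202% and 0.202% met the 3 conditions in numbers 1, 2 and 3. All of the chosen probe sets stood above intact in the number left out, after decapitation and with NPA, with medians from 3.93 to 4.54 and from 3.67 to 4.17. Median IAA offsets there lay between -0.01 and 0.02, although single offsets reached 2.59. The 3 differences of a replicate share its intact array and are not independent of each other.

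Genes of related pathways were read in the same 4 groups from 16 lists of 124 genes. The probe annotation gave 24 of them a probe set of their own, called measured below, and none of these 24 was a member. The other listed genes may lie among the probe sets without a named gene, which include 24 members. Whether any of them is a member is therefore not known. Calls in this paragraph are adjusted p below 0.05 in limma over all 22746 probe sets, of which 12.8% were higher and 13.4% lower after decapitation, 13.9% and 13.9% with NPA, 11.0% and 11.9% with IAA against decapitated, and 3.89% and 4.78% with IAA against intact. The auxin-induced list, the counterpart of the members, had 8 of 16 genes measured. All 8 rose with IAA against decapitated (median 5.78, and -0.04 over all probe sets) and against intact (median 3.59, and -0.02 over all), while 3 fell after decapitation and 3 with NPA. GH3.1, IAA29, LBD16 and LBD29 lay at background in decapitated, NPA-treated and intact plants, so they could not fall, and their rises and the list medians have no exact size. HAT2, an auxin-induced homeodomain factor gene, averaged 11.79 with IAA, against 4.58 in decapitated plants, and 2.23 with NPA, against 9.24 in intact plants. GH3.3, whose product couples IAA to amino acids, averaged 14.61 with IAA, against 4.23 in decapitated plants and 4.87 in intact plants. IAA carried the 8 auxin-induced genes past the intact level, although LBD29 averaged 2.97 with IAA, still below 3.5. The members were chosen to lie near the intact level with IAA, so a contrast with them was set by the rule.

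Outside auxin response few listed genes had an assigned probe set. Of the type-A cytokinin response regulators 2 of 10 were measured, and ARR15 fell by 3.69 after decapitation and by 2.29 with NPA (SE 0.32 each), while RR16, the gene left out of the members by name, averaged 6.30 after decapitation, 6.85 with NPA and 2.55 with IAA, against 2.70 in intact plants. Of the abscisic acid list 3 of 10 were measured and none passed the test in any of the 4 comparisons, COR15A standing at 1.53 ± 0.69 after decapitation. The sugar-starvation list had 1 measured gene of 15, AKINBETA1, a subunit of the energy-sensing SnRK1 kinase, which rose by 0.94 ± 0.25 with NPA and stood at 0.32 ± 0.25 after decapitation. The jasmonate and wound list also had 1 of 12, ORA47, which fell after decapitation (-2.32 ± 0.80) and stood at -1.45 ± 0.80 with NPA. With IAA it was also lower than in intact plants (-2.72, limma adjusted p 0.0475) and stood at -0.39 against decapitated, and both calls were lost with a second quantile normalization (0.0591 and 0.0526). WRKY53, the measured 1 of 8 senescence genes, stood at 1.17 ± 0.46 and 1.25 ± 0.46 and did not pass the test (adjusted p 0.0795 and 0.0579), but did with array medians subtracted (0.0361 and 0.0183). WAG2, which encodes a kinase acting on auxin efflux, averaged 2.29 after decapitation and 2.30 with NPA, against 3.36 in intact plants, all below 3.5. Its differences there were -1.07 and -1.06 (limma adjusted p 0.0477 and 0.0492), and it rose by 4.58 with IAA against decapitated. Near background these differences have no exact size. No gene of the dormancy-associated and the branching inhibitor lists had an assigned probe set, so these genes were not read here. Subtracting array medians shifted the median of all probe sets by 0.11 after decapitation and 0.13 with NPA, and the called genes over all lists became 7 higher and 7 lower in place of 1 and 7, and 7 and 6 in place of 2 and 6. In that setting 39.2% of all probe sets were called higher after decapitation and 44.2% with NPA, so the added calls are not particular to the lists, and they include CLV3, UFO, EXPA7 and FAMA, which lie at background.

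The max mutants were compared with intact wild type to see whether loss of strigolactone synthesis or response moved the same transcripts in plants with an intact shoot tip. The mutants had no part in the choice, but the intact arrays did, and choosing members with low intact values favours positive differences. A call is again a limma adjusted p below 0.05. In max1 5 of 51 members were higher (9.80%, against 1.92% of all probe sets) and 1 was lower (1.96%, against 1.82%). Without max1 replicate 1 the max1 calls were 2 (2.62% of all probe sets called), and without intact replicate 2 they were 3 (2.53%). In a fit of only these groups 1 was left, where 0.87% of all probe sets were called. The fit of all groups called 3.74%. In max2 3 were higher (5.88%, against 1.65%) and 1 was lower (1.96%, against 1.47%). Leaving out probe sets dim in every array gave 7 calls in max2, with 5.35% of the probe sets then called in place of 3.12%. The replicate block gave 6, the added ones being 263963_at and AT2G24240 (adjusted p 0.0299, in place of 0.184), with 5.14% of all probe sets called. In max3 1 was higher (1.96%, against 0.998%) and none lower, with 1.02% of all probe sets lower. At an unadjusted p below 0.05 were 12 of 51 members in max1 (3597 of all 22746 probe sets), 14 in max2 (2753 of all probe sets) and 8 in max3 (3134 of all probe sets, or 13.8%). The medians over the members, -0.01 in each of the 3 mutants, lay close to those of all probe sets (-0.03, -0.02 and -0.03). In no mutant were 44 members called. Of all probe sets 3.74%, 3.12% and 2.02% were called in max1, max2 and max3, so most probe sets are uncalled as well. The 95% interval of the difference stayed below 3 in all 3 mutants for 46 members and below 1 for 31. Shares of all probe sets called in no mutant, or with such intervals, were not computed. In 16 members all 9 mutant arrays lay within 0.5 of the intact mean, but all 16 belong to the 19 near background, where the arrays cannot fall and the class itself holds them below 3.5. With 3 arrays per group, no call is not the same as equal levels.

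**Figure D4:**
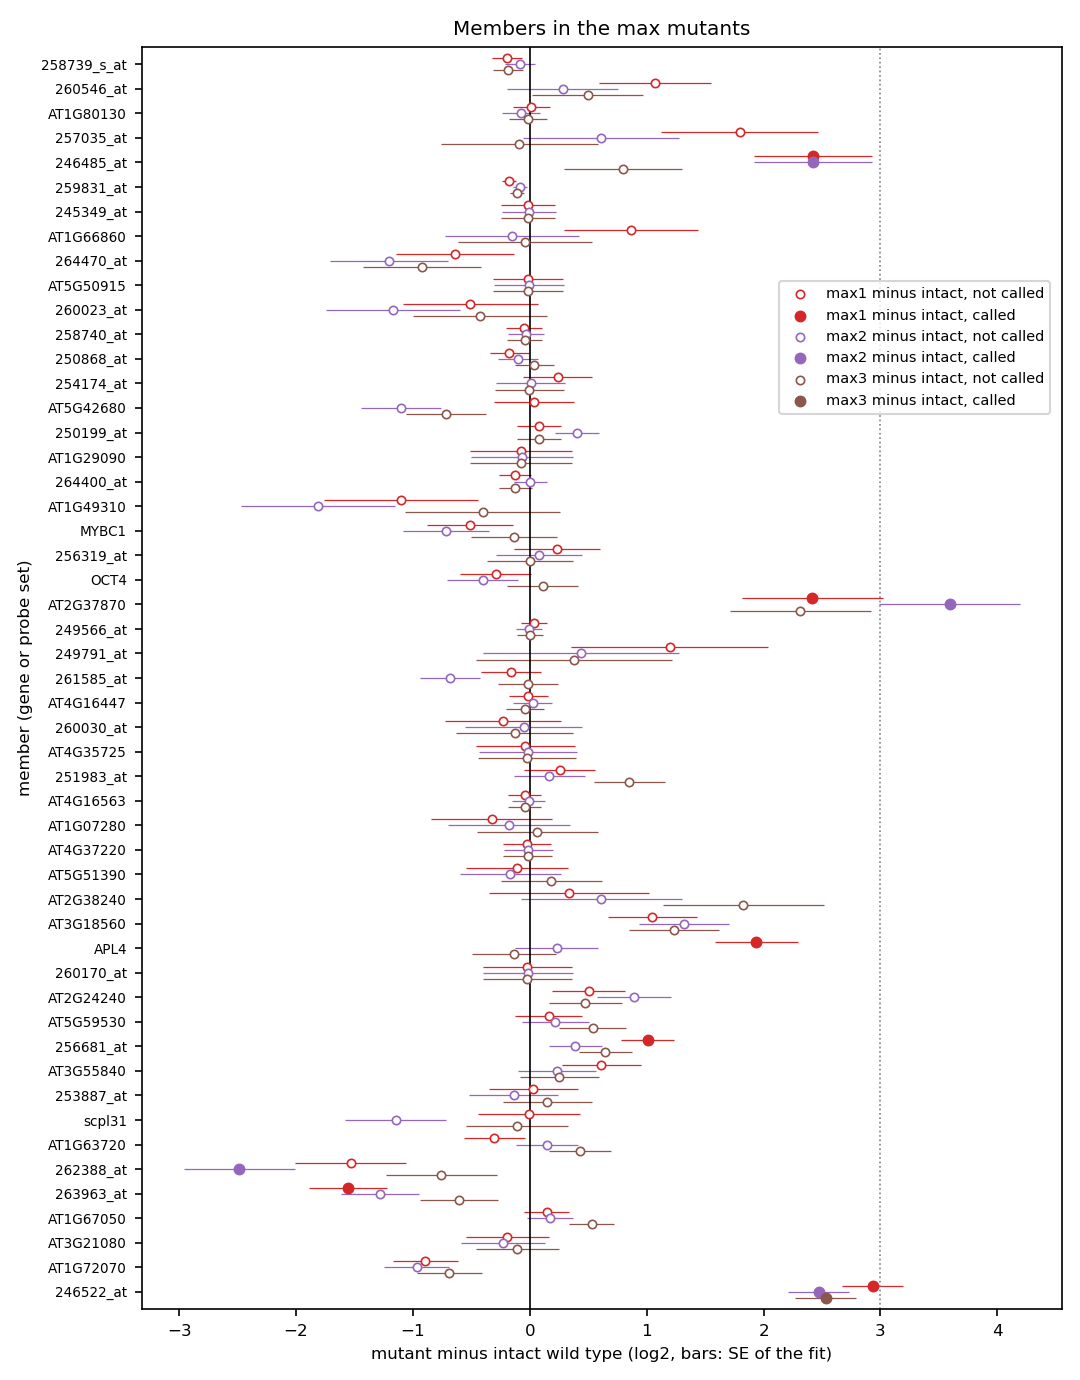
Difference of max1, max2 and max3 from intact wild type (across, log2, bars are the SE of the fit) for the 51 members (down, by mean rise). Filled points have an adjusted p below 0.05 in limma and the dotted line marks 3, and apart from 246522_at, AT2G37870, 246485_at, APL4 and 256681_at no member has a filled point right of 0.

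1 member was higher in all 3 mutants. The unnamed 246522_at read 8.16, 8.62 and 7.93 in max1, 7.93, 7.50 and 7.89 in max2 and 7.93, 7.81 and 7.77 in max3, against 5.24, 5.36 and 5.31 in intact wild type. The differences were 2.93, 2.47 and 2.53 with an SE of 0.26 and limma adjusted p of 1.2e-05, 8.24e-05 and 0.000204, and the 3 calls were kept under each of the alternatives tried. All 9 mutant arrays lay above the intact arrays, and 2 of them at or above the lowest of the decapitated and NPA arrays, which read 8.54, 8.25 and 8.35 and 8.44, 8.47 and 8.07. With IAA it read 5.78, 6.68 and 5.28.

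AT2G37870 read 8.09, 8.29 and 8.97 in max1, 10.57, 10.27 and 8.04 in max2 and 7.60, 8.71 and 8.74 in max3, against 6.25, 5.13 and 6.73 in intact wild type. It was higher by 2.42 in max1 and 3.59 in max2 (SE 0.60, limma adjusted p 0.037 and 0.00329) and stood at 2.31 in max3 (adjusted p 0.0627). All 9 mutant arrays lay above the 3 intact ones. The call in max1 was lost when max1 and intact were fitted alone (adjusted p 0.12), without intact replicates 1 or 2 (0.0763 and 0.141) and without any 1 max1 replicate (0.0653 to 0.14), and that in max2 in a fit of only the 2 groups (0.208). AT3G18560 also had all 9 mutant arrays above the intact ones, with differences of 1.05, 1.32 and 1.23, and passed the test in none (limma adjusted p 0.172, 0.0813 and 0.123), although max2 was called with dim probe sets left out (0.0452). These 3 of 51 members compare with 2.66% of all probe sets that show this order.

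246485_at read 6.71, 6.32 and 6.11 in max1, 6.19, 5.64 and 7.30 in max2 and 5.003, 4.74 and 4.52 in max3, against 4.26, 3.07 and 4.53 in intact wild type. It was higher in max1 and in max2, by 2.42 each (SE 0.51, limma adjusted p 0.0136 and 0.015), and stood at 0.80 in max3. The calls were lost when each pair was fitted alone (0.0952 and 0.228), without intact replicate 2 (0.0637 and 0.0741), and without max1 replicate 1 (0.0539) or max2 replicate 3 (0.0629). The 6 max1 and max2 arrays lay above the intact and below the decapitated and NPA arrays, while max3 overlapped intact. 256681_at was higher in max1 alone among the calls, by 1.01 ± 0.23 (adjusted p 0.0213), with 5.82, 5.73 and 5.29 in max1 against 4.70, 4.87 and 4.25 in intact wild type. That call was lost in a fit of only these groups (0.143), without intact replicate 3 (0.0974) and without max1 replicates 1 (0.0887) or 2 (0.0723).

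APL4 read 4.83, 4.47 and 5.50 in max1, 3.53, 2.97 and 3.18 in max2 and 2.48, 3.46 and 2.64 in max3, against 2.37, 3.01 and 3.604 in intact wild type. It was higher in max1 by 1.94 ± 0.36 (limma adjusted p 0.0057, lost in a fit of only the 2 groups at 0.138), and all max1 arrays lay above all max2, max3 and intact arrays. The decapitated and NPA arrays, 6.36, 6.34 and 7.25 and 6.69, 6.19 and 6.80, lay higher still. The intact mean of APL4 was below 3.5, near background, so its differences from intact have no exact size.

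2 members went the other way. 262388_at read 7.37, 6.01 and 7.74 in max1, 6.42, 6.08 and 5.76 in max2 and 8.04, 8.02 and 7.37 in max3, against 8.90, 8.34 and 8.47 in intact wild type. Every mutant array was below every intact array. It was lower in max2 by -2.49 ± 0.48 (limma adjusted p 0.00845), while max1 stood at -1.53 (0.0998, and 0.0263 with the replicate block) and max3 at -0.76. 263963_at read 4.25, 4.84 and 4.88 in max1, 4.47, 4.78 and 5.54 in max2 and 5.19, 5.76 and 5.87 in max3, against 5.51, 6.51 and 6.61 in intact wild type. It was lower in max1 by -1.56 ± 0.33 (adjusted p 0.0161), and in max2 it stood at -1.28 (0.0503, and 0.00473 with the replicate block). The max1 call was lost in a fit of only the 2 groups (0.158), without intact replicates 2 (0.0675) or 3 (0.0736) and without max1 replicate 1 (0.0721). In 262388_at and AT1G72070 all 9 mutant arrays lay below the 3 intact ones, as in 3.3% of all probe sets. AT1G72070, which passed the test in no mutant (adjusted p 0.0981, 0.0775 and 0.261, with max2 at 0.0462 when dim probe sets were left out), read 2.84, 2.85 and 2.82 in max1, 2.60, 2.84 and 2.85 in max2 and 3.13, 2.84 and 3.16 in max3, against 4.11, 3.51 and 3.57 in intact wild type.

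Single mutant arrays were high for a few members. AT1G66860 read 2.78, 2.94 and 5.86 in max1, where the third replicate stood apart, and 257035_at read 5.44, 2.90 and 5.72 in max1 and 5.08, 2.88 and 2.55 in max2, where 3 of 6 arrays were raised. AT2G38240 read 4.85, 3.25 and 5.64 in max3. AT1G66860, 257035_at and AT2G38240 passed the test in no mutant. Without max1 replicate 2, 257035_at was called in max1 (adjusted p 0.0186, in place of 0.185).

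The mutants were also compared with each other, where no array used by the rule enters. Between max2 and the mean of max1 and max3, the signalling mutant and the synthesis mutants, none of the 51 members passed the limma test, while 0.0747% of all probe sets were higher and 0.0967% lower. An unadjusted p below 0.05 was found for 7 members and for 4.72% of all probe sets. The members with the smallest p were 262388_at (-1.34 ± 0.41, adjusted p 0.546) and scpl31 (-1.09 ± 0.38, adjusted p 0.764), both at lower levels in max2. Between max1 and max3, 1 member was higher (0.132% of all probe sets) and none lower (0.229%), and 7 members had an unadjusted p below 0.05, as did 6.01% of all probe sets. The member called was APL4, at 2.07 ± 0.36 (limma adjusted p 0.0145), with every max1 array above every max3 array and every max3 array below 3.5. The call was lost in a fit of only these 2 groups (0.33) and without max1 replicate 3 (0.0819), max3 replicate 1 (0.0841) or max3 replicate 3 (0.0808).

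The 26 named members lay on all 5 nuclear chromosomes, with 9 on chromosome 1, 5 on chromosome 2 and 4 on each of the others. None were direct neighbours, the closest pair in gene order being AT4G16447 and AT4G16563, 20 positions apart in the RefSeq list of genes.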

How the data were processed

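RNA of pooled hypocotyls was measured on ATH1 arrays. The deposited values are log2 expression per probe set and array; per the submitters' processing notes RMA, GCRMA and R 3.2.2 were used, with roles not given in the sources used here. Of 22810 probe sets 64 controls were left out. Precision is limited by 3 arrays per group, since arrays give no read depth. Samples were grouped by the labels. A model of group means over all 21 arrays was fitted with limma 3.58.1 in R 4.3.3, with moderated errors. P-values were adjusted by Benjamini-Hochberg over 22746 probe sets. The fit was also run on simulated data with independent noise per array. That run cannot check the fit under the correlation by replicate number given below. In the probe annotation 13513 probe sets had 1 gene, 503 had several and 8730 had none listed, and 13436 of the 13513 were found in the RefSeq gene list. Members and gene lists were chosen with earlier results of these data known. Named by rule were the 12 members with the highest mean rise, those with a symbol, those called in a mutant, the 3 at each end of NPA minus decapitated and those nearest the thresholds; other members given with values were picked after these were seen. Per the labels, treatments of 1 replicate number were done together: residuals of same-numbered arrays correlated with a median of 0.36, against -0.12 for different numbers. Alternatives were array median subtraction, a second quantile normalization, a filter on dim probe sets, an intensity trend, a fit of only the groups compared, the replicate block and leaving out each replicate. Promoter and protein sequences were not analysed here.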

Additional observations from a re-analysis of the deposited data

Results flagged for a closer look

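APL4, the gene for a large subunit of ADP-glucose pyrophosphorylase, stood 2.07 ± 0.36 (SE) higher in max1 than in max3 on the log2 scale (limma adjusted p 0.0145), although both mutants lack strigolactone synthesis. All 3 max1 arrays lay above all 3 max3 arrays. The max3 arrays were below 3.5, near background, so the difference has no exact size. Its adjusted p ranged from 0.00527 to 0.33 over the alternatives.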

How the results depend on the processing

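The rule gave 80 probe sets with rises of at least 2.5, 33 with rises of at least 3.5 and 33 with IAA within 0.5 of intact, in place of 51, and 47 to 54 when 1 replicate was left out, with 30 members kept in all 12 such choices. In a fit of only the groups compared, members called were 1 in max1, 2 in max2 and 0 between max1 and max3, while all probe sets called fell to 0.87%, 0.466% and 0.0747%, against 3.74%, 3.12% and 0.361%. Without probe sets below 3.5 in every array they were 7 in max2 and 2 in max3 (5.35% and 3.72% of the probe sets then tested). Leaving out 1 replicate gave 2 to 5 in max1, 4 to 6 in max2 and 0 to 1 between max1 and max3. Of all probe sets 2.19% to 2.81%, 1.98% to 2.75% and 0.268% to 0.431% were then called, against 3.74%, 3.12% and 0.361%. The replicate block gave 7 in max1, 6 in max2 and 1 in max3, with 6.23%, 5.14% and 4.27% of all probe sets called. With array medians subtracted, list genes called were 14 after decapitation and 13 with NPA, in place of 8 and 8, with 51.4% and 56.7% of all probe sets called, against 26.2% and 27.8%. Of 12 single calls under 144 combinations with alternatives, 118 were kept, 26 lost and 0 reversed. Some alternatives used fewer arrays or probe sets, and the cause of the changed calls was not tested. Near-background values limit the size of differences for 28 members with intact means below 3.5, and for those of the other 23 with single arrays below 3.5. All tests are limited by 3 arrays per group.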
